A study of Mus musculus with 8 samples.

Results

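The genes examined here are 34 genes of the oligodendrocyte lineage and of myelin, measured in the nucleus accumbens (NAc), a region of the ventral striatum. They were chosen by name. Every probe whose gene name on the array was one of the 34 was taken (Tmem10, also called Opalin, under either name), which gave 45 probes. All 34 genes had a probe that passed the signal filter, of 22759 genes in the series that did, and 34741 genes had a probe on the array. The mice were male C3H/HeN, 4 exposed to maternal separation (MS) and 4 controls, with 1 array per mouse. MS pups were taken from the dam daily between postnatal days 2 and 14 while the dam underwent unpredictable stress, and control pups were left with their dams. Weaning was on day 21, and mice were then housed by condition. As adults they were trained to press a lever for sweetened milk, and they were without food before the brain was taken. The tissue was a punch from frozen slices, with no sorting of cells, of 1 strain and 1 sex. In such a sample, fewer cells of a type and less RNA per cell cannot be told apart.

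Oligodendrocytes wrap axons in myelin, and in the adult brain they still arise from precursor cells that divide throughout life. Precursors carry the growth factor receptor Pdgfra and the NG2 proteoglycan encoded by Cspg4. On differentiation these are switched off, newly forming cells pass through a short stage marked by Gpr17, Enpp6 and Bcas1, and mature cells produce large amounts of myelin lipid enzymes and structural proteins such as Mbp and Mog. The striatum is crossed by myelinated fibre bundles, so a punch of it holds cells of every stage. The genes were therefore read as 8 precursor and lineage genes, 4 genes of newly forming cells, 19 genes of mature myelin and 3 genes of the contact with the axon, some of which neurons express as well.

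The sequences shown are those of genes whose MS and control values did not overlap, with 1 mature gene, chosen after its values were seen, for contrast. An array probe is a DNA of 60 bases that reads its gene. The probe of C1ql1 (mm9, chr11:102801107-102801166, minus strand) and that of Cspg4 (mm9, chr9:56746627-56746686, plus strand) are given because each carries a whole result for its gene. Both are open in at least 1 reading frame. No base is in capitals in them.
C1ql1 probe: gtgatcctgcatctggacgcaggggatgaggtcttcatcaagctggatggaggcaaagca
Cspg4 probe: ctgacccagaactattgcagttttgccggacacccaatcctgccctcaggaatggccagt

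Promoter windows of 250 bases before the annotated start were taken from RefSeq (GRCm38.p6) and searched on both strands for the motif bound by SOX factors, written ACAAAG. Its reverse complement reads CTTTGT. The TATA motif was searched as TATAAA on either strand. The third motif was an E-box, CAGCTG, whose reverse complement is itself. The windows are shown with these letters in capitals. They lie at chr16:91225300-91225549 (Olig2), chr9:56864854-56865103 (Cspg4), chr3:102734520-102734769 (Tspan2, the first of its 2 windows, of which the other holds ACAAAG 42 bases before its start) and chr9:120149492-120149741 (Mobp), all on the plus strand.
Olig2 promoter: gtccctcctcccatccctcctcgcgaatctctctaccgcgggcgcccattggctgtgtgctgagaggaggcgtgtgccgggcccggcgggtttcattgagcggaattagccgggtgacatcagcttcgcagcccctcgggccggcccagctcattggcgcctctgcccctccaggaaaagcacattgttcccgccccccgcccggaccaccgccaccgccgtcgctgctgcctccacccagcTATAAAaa
Cspg4 promoter: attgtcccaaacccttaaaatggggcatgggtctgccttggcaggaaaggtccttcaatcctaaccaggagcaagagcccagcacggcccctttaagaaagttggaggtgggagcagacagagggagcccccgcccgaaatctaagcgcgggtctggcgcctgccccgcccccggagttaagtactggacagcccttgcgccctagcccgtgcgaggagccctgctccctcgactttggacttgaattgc
Tspan2 promoter: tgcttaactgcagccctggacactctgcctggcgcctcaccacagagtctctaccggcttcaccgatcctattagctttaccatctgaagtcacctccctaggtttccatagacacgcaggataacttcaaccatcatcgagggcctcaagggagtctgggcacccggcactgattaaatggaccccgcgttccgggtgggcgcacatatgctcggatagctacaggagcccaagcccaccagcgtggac
Mobp promoter: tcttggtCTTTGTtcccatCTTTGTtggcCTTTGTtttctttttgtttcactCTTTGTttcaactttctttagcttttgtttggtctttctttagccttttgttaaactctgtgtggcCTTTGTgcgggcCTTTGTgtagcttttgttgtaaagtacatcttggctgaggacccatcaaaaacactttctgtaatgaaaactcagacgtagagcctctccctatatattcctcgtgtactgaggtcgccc

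Windows were listed for 25 of the 34 genes, 34 windows in all. None was matched for Olig1, Gpr17, Mbp, Fa2h, Bcas1, Trf, Omg, Sox10 and C1ql1. The SOX letters stood in 10 of the 34 windows (29.4%), against 16.5% of all 32851 windows. They were in 0 of 5 precursor windows and in 9 of 23 mature myelin windows, which belong to 16 genes and in part overlap each other. The Mobp window held them 6 times. TATAAA was in 3 of the 34 windows (8.82%) and in 12.4% of all windows. In Olig2 it began 8 bases before the annotated start. CAGCTG was in 2 of the 34 windows (5.88%) and in 13.0% of all windows. Such matches describe the letters and are not binding sites.

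Levels are given as log2 of the processed signal relative to the 75th percentile of the array, so that a value of 0 is the 75th percentile. Differences are MS minus control. Each of the 8 arrays had 57.3% to 69.7% of its probes well above background. Control 4 had the highest share, and the other 7 arrays reached at most 61.2%. The tissue was checked against marker genes. All 8 markers of medium spiny neurons, the main neurons of the NAc, were well above background, and so were the defining precursor and mature oligodendrocyte markers on all 8 arrays. The animal numbers in the labels share their first digit in 3 mice of each group and start with another digit in the remaining mouse (MS 1 and control 1), and what that digit stands for is not given. Nothing states that the mice of a group came from separate litters, so the p-values measure the spread between these mice only.

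None of the 34 genes passed an adjusted p of 0.05 in limma, a linear model fitted to each probe with Benjamini-Hochberg adjustment over all 33111 probes tested. Of all probes tested, 1 passed (0.00302%). Most members were nevertheless on 1 side. The difference was negative in 32 of 34 genes, with a median of -0.22 and a range of -0.53 to 0.14, while 49.4% of all probes were negative and the median of all probes was 0.002. An unadjusted p below 0.05 was reached by 7 of 34 genes, all with lower values in MS, against 7.71% of all probes with a lower and 6.35% with a higher value in MS. In 5 genes the 4 MS values all lay below the 4 control values, and in none above. Over all probes tested, 4.91% did not overlap with MS lower and 3.76% did not overlap with MS higher. With normexp background correction, 2 genes did not overlap (C1ql1 and Olig1), against 4.4% of all probes with MS lower. C1ql1 alone of the 34 passed the adjusted threshold with normexp and with the deposited values, where 1.38% and 1.20% of all probes did, and C1ql1 and Olig1 passed with trended and robust moderation, where 1.52% did. The genes share mice and often cells, so their counts are not independent of one another.

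**Figure D1:**
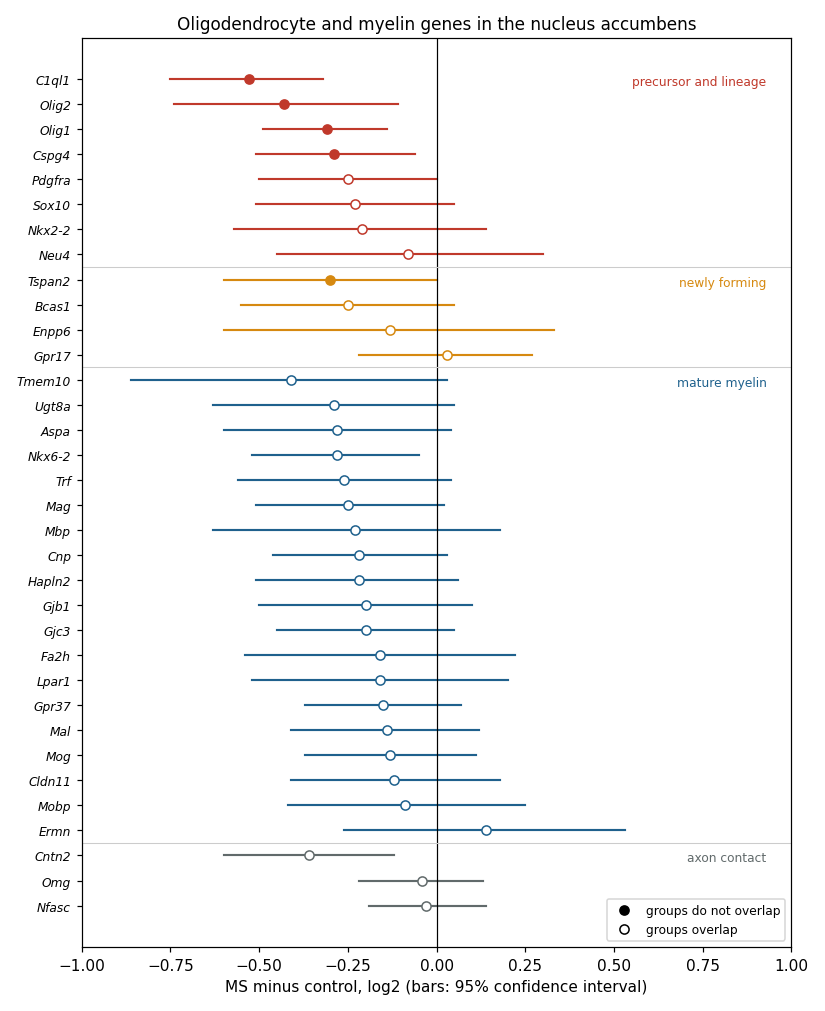
Difference between MS and control in each of the 34 genes, in log2, with its 95% confidence interval from limma, grouped by role. Filled points are the 5 genes whose groups did not overlap, C1ql1, Olig2, Olig1, Cspg4 and Tspan2, and 32 of the 34 points lie left of 0.

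The precursor and lineage genes held 4 of these 5 genes. All 8 were lower in MS in sign, with a median difference of -0.27 and a range of -0.53 to -0.08, and 5 of 8 had an unadjusted p below 0.05. The lowest adjusted p among them was 0.0869. C1ql1, which encodes a secreted protein of the C1q family made by precursors and by some neurons, had the largest difference of the 34 when each gene was read from its brightest probe. A second, dimmer probe of Nkx2-2 differed by more (-0.64). C1ql1 was at -2.21, -2.38, -2.48 and -2.31 in MS mice 1 to 4, against -1.84, -1.97, -1.81 and -1.63 in control mice 1 to 4. Every MS mouse was below every control mouse. The difference was -0.53 ± 0.09 (SE, n = 4 each), or 69.1% of the control level, with an adjusted p of 0.0869 in limma. C1ql1 is also in the list of changed genes that the study drew from these samples, so it is not independent evidence of a direction.

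The transcription factors Olig1 and Olig2 are basic helix-loop-helix proteins, and Olig2 is needed to specify the lineage. Olig1 was at 2.47, 2.44, 2.48 and 2.42 in MS mice, against 2.76, 2.67, 2.68 and 2.95 in control mice. The MS mice were within a narrow band (2.45 ± 0.03, SD, n = 4) below all controls (2.77 ± 0.13, SD, n = 4). The difference was -0.31 ± 0.08 (SE), with an adjusted p of 0.15 in limma. Olig2 was at -0.62, -0.93, -0.47 and -0.83 in MS mice, against -0.40, -0.46, -0.30 and 0.03 in control mice. The groups touched without overlapping, MS 3 at -0.47 and control 2 at -0.46. The difference was -0.43 ± 0.14 (SE), or 74.3% of control, with an adjusted p of 0.231 in limma. Cspg4, the NG2 proteoglycan, was at 0.14, -0.01, -0.17 and -0.06 in MS mice, against 0.17, 0.18, 0.21 and 0.48 in control mice. Control 4 stood well above the other 3 controls, which lay just above MS 1. The difference was -0.29 ± 0.10 (SE), with an adjusted p of 0.259 in limma, and it was -0.21 without control 4.

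**Figure D2:**
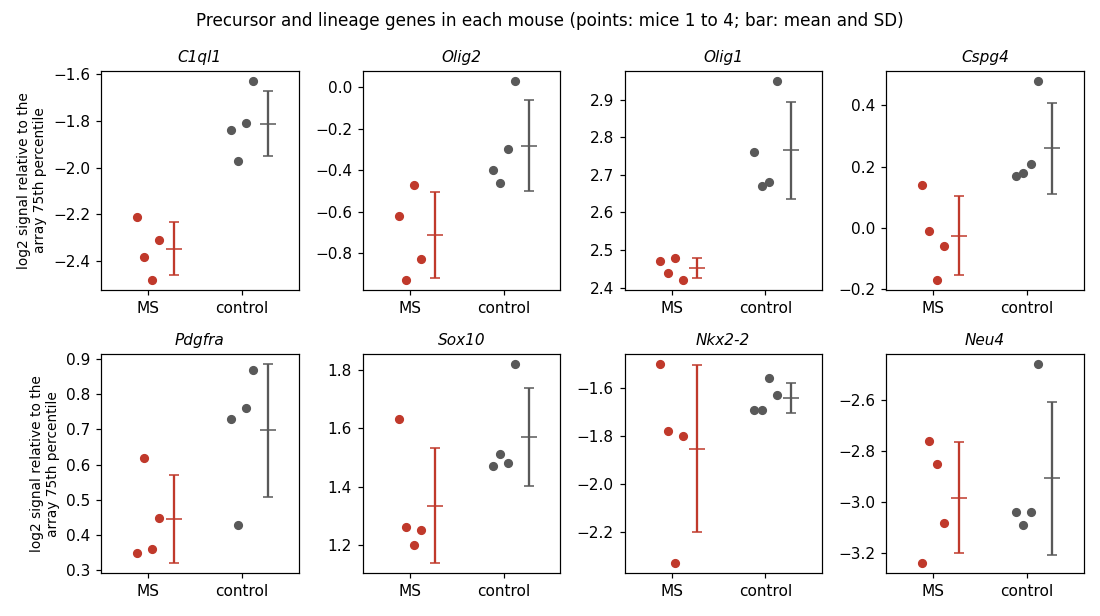
Level of each of the 8 precursor and lineage genes in every mouse, as log2 signal relative to the 75th percentile of the array, with the mean and SD of the 4 mice of each group beside the points. MS and control points do not overlap in C1ql1, Olig2, Olig1 and Cspg4, and they overlap in Pdgfra, Sox10, Nkx2-2 and Neu4.

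The other 4 precursor and lineage genes overlapped between the groups. Pdgfra, the receptor for platelet-derived growth factor, was at 0.35, 0.62, 0.36 and 0.45 in MS mice, against 0.73, 0.43, 0.76 and 0.87 in control mice. Only control 2 fell among the MS values. The difference was -0.25 ± 0.11 (SE), with an adjusted p of 0.354 in limma. Its probe is printed 10 times on the array, and the 8 to 10 spots kept per array varied by an SD of 0.04 to 0.10 in log2, less than the SD of 0.12 among MS mice and 0.19 among control mice. Sox10, a transcription factor kept through the whole lineage, averaged 1.34 ± 0.20 in MS and 1.57 ± 0.17 in control mice (SD, n = 4 each). MS 1, at 1.63, was above 3 of the 4 controls. Nkx2-2, a homeodomain factor that acts as precursors begin to differentiate, averaged -1.86 ± 0.35 in MS and -1.64 ± 0.06 in control mice, and MS 3 was lowest at -2.33. Neu4, a sialidase of precursors, differed least of the 8, by -0.08 ± 0.17 (SE), and by 0.07 without control 4.

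Among the 4 genes of newly forming oligodendrocytes, 3 were lower in MS in sign, with a median of -0.19 and no unadjusted p below 0.05. Tspan2, a tetraspanin, was at 2.61, 2.57, 2.53 and 2.25 in MS mice, against 2.67, 2.67, 2.67 and 3.14 in control mice. The groups did not overlap, but 3 controls lay just above the MS mice and control 4 far above. The difference was -0.30 ± 0.13 (SE), with an adjusted p of 0.363 in limma, and it was -0.18 without control 4. Bcas1, a marker of cells that have begun to myelinate, differed by -0.25 ± 0.13 (SE). Enpp6, a choline phosphodiesterase of newly forming cells, averaged -4.18 ± 0.04 in MS and -4.05 ± 0.46 in control mice (SD, n = 4 each). Its control mice ran between -4.68 and -3.56, so the difference of -0.13 ± 0.20 (SE) was well inside the control spread, and it was 0.03 without control 4. Gpr17, a receptor of committed precursors, was at 3.34, 3.16, 3.48 and 3.33 in MS mice, against 3.06, 3.39, 3.30 and 3.46 in control mice. Its difference of 0.03 ± 0.11 (SE) had a 95% confidence interval of -0.22 to 0.27.

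The 19 mature myelin genes were lower in MS in sign in 18 cases, with a median of -0.20 and a range of -0.41 to 0.14. None of the 19 had groups that did not overlap, 1 had an unadjusted p below 0.05, and the lowest adjusted p was 0.272. That gene was Nkx6-2, a homeodomain factor of maturing oligodendrocytes. It was at -1.18, -1.45, -1.41 and -1.48 in MS mice, against -1.27, -1.15, -1.06 and -0.90 in control mice. MS 1 lay among the controls and the other 3 MS mice below all of them. The difference was -0.28 ± 0.10 (SE). Tmem10, a membrane glycoprotein of myelinating cells, had the largest difference of the mature genes on any tested probe, -0.41 ± 0.20 (SE). It was at -1.81, -1.39, -1.54 and -2.29 in MS mice, against -1.58, -1.39, -1.33 and -1.07 in control mice, with MS 4 far below the rest.

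Genes that encode proteins of the myelin sheath itself lay on both sides of the mature median of -0.20. Mag, an adhesion protein of the layer next to the axon, averaged 3.93 ± 0.20 in MS and 4.17 ± 0.14 in control mice (SD, n = 4 each), a difference of -0.25 ± 0.12 (SE). Mog, on the outer face of myelin, differed by -0.13 ± 0.10, Cnp, an enzyme of non-compact myelin, by -0.22 ± 0.11, and Cldn11, which forms its tight junctions, by -0.12 ± 0.13 (SE). Mal, a proteolipid of membrane rafts, differed by -0.14 ± 0.12 (SE). In each of these 5 genes MS 4 had the lowest and control 4 the highest level of the 8 mice. Mbp, which holds the membrane layers together, differed by -0.23 ± 0.18 on its brightest probe, but its other 2 probes were higher in MS, and the mean over the 3 was 0.07. Mobp, found in compact myelin, differed by -0.09 ± 0.15 (SE), and by 0.02 without control 4.

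Genes of myelin lipids and of metabolism also lay on both sides of the mature median. Ugt8a, which makes galactosylceramide, differed by -0.29 ± 0.15, and Fa2h, which hydroxylates the fatty acids of those lipids, by -0.16 ± 0.17 (SE). Aspa, which releases acetate from N-acetylaspartate, differed by -0.28 ± 0.14 (SE). Trf, the iron carrier transferrin, was at 5.3, 5.02, 5.06 and 5.06 in MS mice, against 5.03, 5.33, 5.54 and 5.59 in control mice. Control 1 lay among the MS mice and the other 3 controls above all of them, and the difference was -0.26 ± 0.13 (SE). The connexins Gjb1 and Gjc3, which build the gap junctions of oligodendrocytes, each differed by -0.20, with SEs of 0.13 and 0.11. Hapln2, a link protein at nodes of Ranvier, differed by -0.22 ± 0.13, and the receptors Gpr37 and Lpar1 by -0.15 ± 0.10 and -0.16 ± 0.16 (SE). Ermn, a cytoskeletal protein of myelinating cells, had a positive difference on its brightest probe, 0.14 ± 0.17 (SE), the only mature gene to do so by that choice of probe. Averaged over both of its probes, Ermn differed by -0.03.

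Of the 3 genes of axon contact, Cntn2, a cell adhesion protein beside the nodes, was at -2.51, -2.79, -2.86 and -2.60 in MS mice, against -2.54, -2.27, -2.23 and -2.30 in control mice. MS 1 and control 1 crossed by a narrow margin, and the other mice did not. The difference was -0.36 ± 0.10 (SE), or 78.1% of control, with an unadjusted p below 0.05 and an adjusted p of 0.197 in limma. Nfasc, which encodes neurofascin, differed by -0.03 ± 0.07, and Omg, a glycoprotein of oligodendrocytes and neurons, by -0.04 ± 0.08 (SE). Their 95% confidence intervals were -0.19 to 0.14 and -0.22 to 0.13. The median of the 3 was -0.04, or 0.00 when arrays were scaled to their medians, and their mean was -0.14.

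Precursor and mature genes were then compared within each mouse. For this, each gene was centred on its 8-mouse mean, and the centred values of all genes of a group were averaged into 1 score per mouse. The precursor score averaged all 8 precursor and lineage genes. The lineage genes among them, such as Sox10, are not confined to precursors, so the score does not read precursors alone. The precursor score was -0.06, -0.13, -0.22 and -0.18 in MS mice, against 0.08, 0.01, 0.12 and 0.37 in control mice. All MS mice were below all controls. The mature score was 0.09, -0.15, -0.06 and -0.26 in MS mice, against -0.12, 0.09, 0.10 and 0.32 in control mice. These overlapped, since MS 1 was as high as control 2 and control 1 was as low as the MS mice. The difference in score was -0.29 for precursor and -0.19 for mature genes. The precursor score minus the mature score averaged -0.05 ± 0.12 in MS and 0.05 ± 0.12 in control mice (SD, n = 4 each), with ranges of -0.15 to 0.08 and -0.08 to 0.20. These ranges overlapped, and no interval was computed for the difference of -0.10 between the groups. Whether precursor genes differed more than mature genes was therefore not resolved between these mice. No test was made on the scores, since the genes were chosen with results known.

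**Figure D3:**
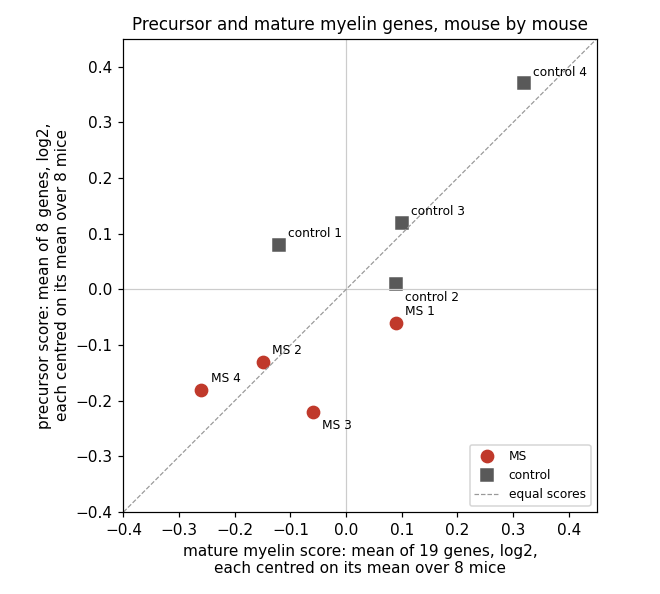
Precursor score of each mouse (vertical axis, 8 genes) against its mature myelin score (horizontal axis, 19 genes), both in log2 relative to the mean of the 8 mice, with circles for MS, squares for control and a dashed line where both scores are equal. The MS mice lie below 0 and the control mice above 0 on the precursor axis, while on the mature axis MS 1 and control 1 lie across the other group.

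Levels also varied from mouse to mouse within the groups. Control 4 had the highest level of the 8 mice in 7 of 8 precursor genes and in 18 of 19 mature genes, Ermn being the mature gene where it was not. Without control 4 the difference in score was -0.22 for precursor and -0.12 for mature genes. Within the control group, control 1 was the lowest of 4 in 17 of 19 mature genes. Among all 8 mice, MS 4 was lowest in 10 and MS 2 in 6 of the 19. Control 4 also had the lowest medium spiny neuron score of the 8 mice (-0.52, against -0.18 to 0.09 in the other controls). Its astrocyte score (0.46) and its pallidal neuron score (1.07) were the highest of the 8. The part of these in the results was not tested. The mice lay in 2 rows of the slide with 2 MS and 2 control arrays each. The precursor difference was -0.14 in the first and -0.44 in the second row, where control 4 lay, and the mature difference was -0.02 and -0.37.

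**Figure D4:**
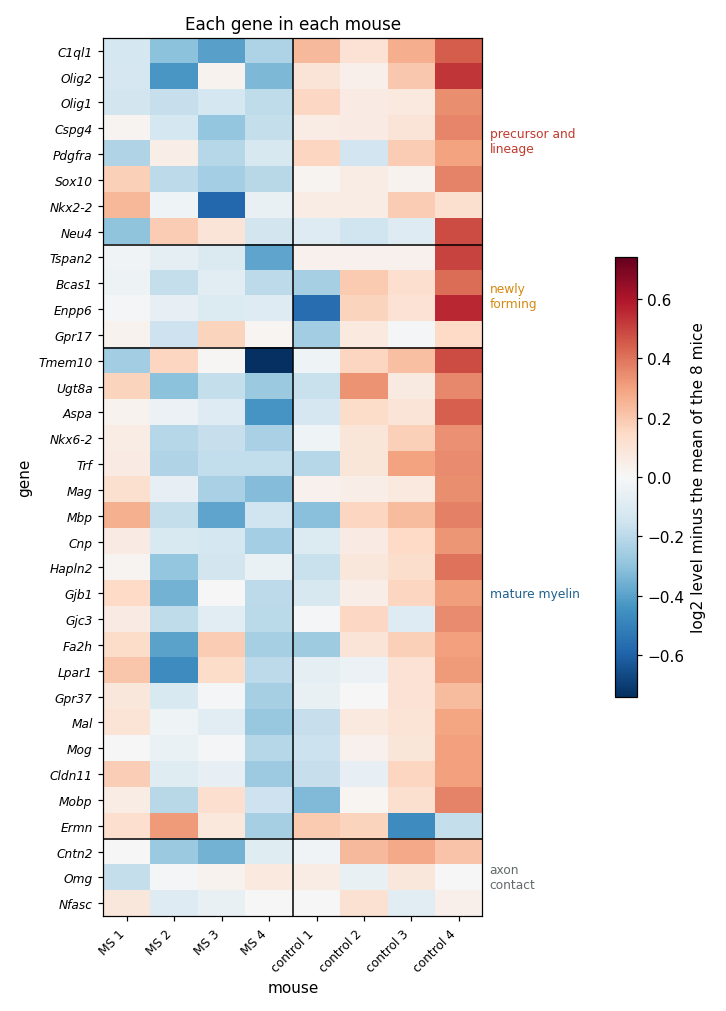
Level of each of the 34 genes (rows, grouped by role) in each mouse (columns, MS left of control), as log2 minus the mean of the 8 mice, blue below and red above that mean. The control 4 column is red in nearly all rows, and the control 1 column is mostly blue in the mature myelin rows.

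Leaving out mice showed how the overlap depended on MS 1 and control 1, the pair with other animal numbers. Without control 1, 14 of 34 genes did not overlap, 6 of them mature, against 6.69% of all probes with MS lower. Without MS 1, 12 of 34 genes did not overlap, 4 of them mature, against 7.90% of all probes. Without both, 22 genes did not overlap, 6 of 8 precursor and 12 of 19 mature, against 10.8% of all probes, and no probe passed the adjusted threshold. Whether the pair came from other litters or cages is not given, and the part of this in the results was not tested.

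More than 1 tested probe was present for 7 genes. The probes had the same sign in 5 of them. The values above are those of the brightest probe of each gene. Both Nkx2-2 probes were lower in MS, by -0.21 ± 0.16 and -0.64 ± 0.23 (SE), and the larger difference came from the dimmer probe, with an adjusted p of 0.283 in limma. The Tspan2 probes differed by -0.30 and -0.28, those of Trf by -0.26 and -0.23, those of Cntn2 by -0.36 and -0.10, and the 3 of Mobp by -0.24 to -0.03. Mbp and Ermn had probes of both signs. Along the Mbp locus in the direction of transcription, the first probe differed by 0.25 ± 0.15, the second, 36460 bases on, by 0.19 ± 0.14, and the third, 50797 bases from the first and the brightest, by -0.23 ± 0.18 (SE). The other Ermn probe differed by -0.19 ± 0.19 (SE), against 0.14 for the brightest. One further probe each of Enpp6 and Gpr37 was too dim to be tested.

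**Figure D5:**
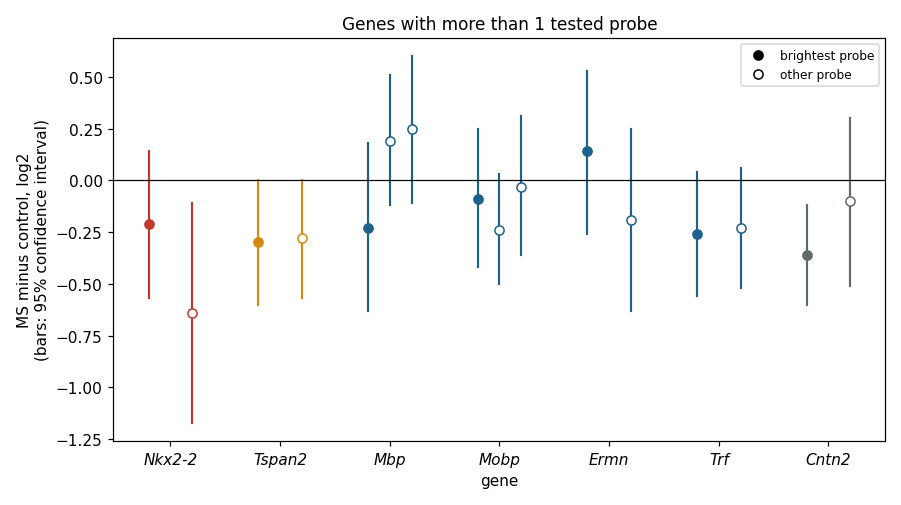
Difference between MS and control, in log2 with its 95% confidence interval from limma, for every tested probe of the 7 genes with more than 1, filled for the brightest probe of a gene. Probes of Mbp and Ermn lie on both sides of 0, and those of the other 5 genes all lie below 0.

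Oligodendrocyte and precursor genes outside the 34 were read from a further list, and other cells may express some of them as well. Of 38 listed, 35 were tested, and 31 were lower in MS in sign, with a median of -0.16. None passed the adjusted threshold. An unadjusted p below 0.05 in limma was reached by 5 of the 35, all lower. Of all probes, 14.1% reached it in either direction and 7.71% with a lower value in MS. In 4 of the 35 the groups did not overlap, all with MS lower, against 4.91% of all probes. Sox6, a transcription factor that keeps precursors immature, was at -3.94, -3.78, -4.35 and -3.80 in MS mice, against -3.65, -3.01, -3.51 and -2.91 in control mice. The MS mice were all below the controls, and the difference was -0.70 ± 0.20 (SE), with an adjusted p of 0.185 in limma. Ppp1r14a, a phosphatase inhibitor of oligodendrocytes, differed by -0.32 ± 0.11, and Lhfpl3, a membrane protein of precursors, by -0.28 ± 0.09 (SE). The fourth was Cers2, a ceramide synthase, at -0.22 ± 0.10 (SE), named after its values were seen.

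Markers of other cell types moved with the groups as well. All 6 pallidal neuron markers were lower in MS with no overlap, with a median of -1.34, and their score was -1.20 to -0.15 in MS and 0.22 to 1.07 in control mice. Over all probes tested, 4.91% did not overlap with MS lower. The list was chosen with earlier results of these data known, and the study names Npas1 and Pvalb of it among its changed genes. Its count is therefore not independent evidence of a direction. All 8 medium spiny neuron markers were higher in sign, with a median of 0.31 and a score of -0.04 to 0.26 in MS and -0.52 to 0.09 in control mice. Of 8 astrocyte markers 6 were lower, with a median of -0.20 and a score of -0.42 to -0.16 in MS and 0.15 to 0.46 in control mice. These 8 were uneven, with a range of -2 to 0.16 and a mean of -0.53, and in 3 of them the groups did not overlap. The lowest were Agt (-2), which the study names as changed, and Itih3 (-1.27). The other astrocyte markers lay between -0.66 and 0.16, so the mean rests largely on Agt and Itih3. All 7 microglia markers were lower in sign, with a median of -0.21 and a score of -0.17 to 0.04 in MS and -0.09 to 0.25 in control mice. Of 5 endothelial markers 3 were lower, with a median of -0.07 and a score of -0.12 to 0.06 in MS and -0.06 to 0.08 in control mice. None of these markers was at or below background on all arrays of a group. The oligodendrocyte differences thus had a median close to those of astrocyte and microglia markers and far smaller than that of pallidal markers. Their mean of -0.21 was close to that of microglia markers (-0.19), while the astrocyte mean was -0.53. The part of the other cell types in the oligodendrocyte differences was not tested.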

How the data were processed

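Total RNA (40 ng) of each punch was labelled with Cy3 and hybridised on 1-colour Agilent mouse arrays, all 8 on 1 slide. Intensities were read with Agilent Feature Extraction 10.10.1.1, per the file headers and the submitters' processing notes, and the processed signal in the files the authors deposited is background-subtracted intensity on a linear scale. The headers name another array design than the study's methods, and probe names and mm9 coordinates are those of the headers. A table of log2 values deposited by the authors has the same median on each array (8.01) and follows the log2 of the uncorrected mean signal. Its normalization is not given in the sources used here, and it served as an alternative.

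Outlier-flagged spots, 122 to 189 an array, were dropped with the control spots, the remaining spots of a probe were averaged, and log2 signals were taken relative to the 75th percentile of each array. A probe entered the test when 4 or more of the 8 arrays showed it well above background (33111 of 55681 probes). The test was run with lmFit and eBayes in limma 3.58.1 (R 4.3.3), with no covariate, and Benjamini-Hochberg adjustment over all of them at 0.05. A gene with several tested probes was represented by the brightest. The number of arrays limits the precision. The code was tested on simulated data with known changes before use. Named genes were all 34 members and, from the further oligodendrocyte list, up to 3 in each direction with the largest difference among those whose groups did not overlap. The members and all lists were chosen with earlier results of these data known. Alternatives were normexp, the deposited values, median and quantile scaling, other filters, trended and robust moderation, slide row or column as a block, the mean over probes, and leaving out mice. Promoter windows came from RefSeq tables of GRCm38.p6.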

Additional observations from a re-analysis of the deposited data

Results flagged for a closer look

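In 7 of 68 combinations of a gene and a group, 1 mouse stood apart from the other 3 by more than Dixon's critical value. Chance flags about 1 in 20 where combinations are independent. Here the genes share mice, so the count cannot be judged against that rate. In 5 of the 7 the mouse was control 4, which was highest each time. Cspg4 was at 0.48 in control 4, against 0.17 to 0.21 in the other controls. Neu4 was at -2.46, against -3.09 to -3.04. Sox10 was at 1.82, against 1.47 to 1.51. Tspan2 was at 3.14, with the other 3 controls all at 2.67. Mag was at 4.39, against 4.08 to 4.12. In the MS group the mouse was MS 1, with Sox10 at 1.63, against 1.20 to 1.26 in the other MS mice, and Trf at 5.3, against 5.02 to 5.06. The cause was not tested.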

How the results depend on the processing

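The medians of the precursor and of the mature genes stayed negative under all 19 alternatives in which they were computed. They were not computed with the percentile taken over averaged probes. The number of probes past the adjusted threshold, 1 as reported, was 457 with normexp, 96 with median scaling, 375 from the deposited values, 0 with no filter on dim probes, 113 with the filter on all arrays, 504 with trended and robust moderation, 0 with slide column as a block, 0 without both MS 1 and control 1, and 4 with the percentile taken over averaged probes, chosen after seeing the data. Leaving out 1 mouse gave 0 to 37, with 37 reached without control 3. The number of the 34 genes past it, 0 as reported, was 1 with normexp, 1 with the deposited values (C1ql1 each time) and 2 with trended and robust moderation (C1ql1 and Olig1), and 0 without each single mouse. C1ql1 then differed by -0.32, -0.40 and -0.53, with adjusted p of 0.0286, 0.0288 and 0.0336, and Olig1 by -0.31 with an adjusted p of 0.042. The number of genes whose groups did not overlap, 5 as reported, was 2 with normexp. It was 22 without both MS 1 and control 1, and 5 to 14 without 1 mouse. On the same probes, leaving out mice can only keep or raise this number. Leaving out 1 mouse gave medians of -0.33 to -0.21 (precursor), -0.27 to -0.13 (mature), -0.34 to -0.06 (newly forming) and -0.08 to -0.03 (axon contact). The median of the newly forming genes was -0.37 without both MS 1 and control 1, and that of the axon contact genes was 0.00 and reversed in sign with median scaling, which moved the median of all probes to 0.049. The sign also reversed in single genes close to 0. Leaving out 1 mouse gave -0.34 to 0.03 for Enpp6, -0.21 to 0.02 for Mobp, -0.15 to 0.07 for Neu4, -0.06 to 0.08 for Gpr17, -0.06 to 0.01 for Nfasc and -0.08 to 0.01 for Omg, and leaving out control 4 alone turned Enpp6, Mobp and Neu4. Without both MS 1 and control 1, Gpr17 was at -0.06 and Omg at 0.02. Median scaling gave 0.02 for Nfasc and 0.00 for Omg, the deposited values -0.02 for Gpr17, and the mean over probes -0.03 for Ermn and 0.07 for Mbp. The cause was not tested. Each slide column held 1 MS and 1 control array, and with column as a block C1ql1 differed by -0.53 with an adjusted p of 0.229, and no member passed. The labels give no shared replicate numbers, so no block on replicate number was fitted.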
